A study of Homo sapiens with 6 samples.

Results

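The 10 genes described here set the activity of mTORC1, and their transcripts were measured in EA.hy926 cells after 8 h at 1% oxygen (hypoxia, 3 libraries) and in EA.hy926 cells at 20% oxygen (normoxia, 3 libraries). EA.hy926 is a hybrid human cell line whose parents were a vein endothelial cell of the umbilical cord and A549, a lung carcinoma line. It was grown in high-glucose medium with serum to near confluence before the oxygen was lowered. The members were taken by name, as inhibitors and core regulators of mTORC1, and all 10 were found among the 22153 genes of the table, with SESN3 and DEPTOR at 6 reads or fewer in each library. RNA with a poly(A) tail was sequenced, so the values are transcript levels, and neither protein nor mTORC1 kinase activity was measured.

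mTORC1 is a protein kinase complex that promotes protein synthesis and cell growth and restrains autophagy. MTOR is its catalytic subunit and RPTOR the subunit that recruits substrates, and the small GTPase RHEB switches the complex on at the lysosome. The TSC1 and TSC2 proteins form a complex that turns RHEB off. DDIT4, also called REDD1, is a stress-induced protein known to act through the TSC complex, and it is a long-known target of the hypoxia-inducible factors (HIF). The sestrins SESN1, SESN2 and SESN3 restrain mTORC1 through the amino acid branch, where SESN2 is a leucine sensor that binds the GATOR2 complex. DEPTOR binds MTOR directly and inhibits it.

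Each library held from 17226736 to 18652704 reads assigned to genes. The deposited values are read counts divided by a size factor of each library, called scaled reads here, and they were also put on the FPKM scale, which divides by summed exon length and by depth, to compare levels between genes. Differences are log2(FPKM + 0.1) in hypoxia minus normoxia, tested with limma over the 10237 genes that reached 1 FPKM in 3 or more libraries, and a gene passed at an adjusted p below 0.05. Of the 10 endothelial markers set against the label, 8 had a mean FPKM of at least 1, led by ENG, CDH5 and PECAM1, while EMCN and CLDN5 were below it. Of 6 epithelial markers in the table, the keratins KRT7, KRT18 and KRT8 averaged 417, 214 and 181 FPKM over all libraries, beside 387 for ENG and 3.50 for KDR. EPCAM, KRT19 and MUC1 were below 1, and CDH1, also looked for, is not among the genes of the table. Of 14 hypoxia-inducible genes set beside the treatment label, 13 were tested, all 13 were higher in every hypoxia library than in any normoxia library, and 6 passed the test. Over all genes tested, 4.77% were higher without overlap and 0.0977% passed. These genes were chosen with earlier results of these data known, so they are no independent check of the treatment. Whether the replicates are separate cultures is not stated, and the p-values therefore cover the spread among these 6 libraries, which may be technical.

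DDIT4 was the member with by far the largest difference, and the one member whose groups did not overlap, where 4.77% of the genes tested were higher without overlap. It had 2078, 4824 and 3156 scaled reads in hypoxia, against 1488, 939 and 156 in normoxia. Every hypoxia library lay above every normoxia library, with a factor of 1.40 between the lowest hypoxia and the highest normoxia library. The highest library held 2.32 times the lowest in hypoxia, against 9.53 times in normoxia. The means were 3353 ± 1383 in hypoxia and 861 ± 669 in normoxia (SD, n = 3 each), a 3.89-fold difference.

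Against the adjustment for all genes tested, the DDIT4 difference was not called. Its log2 difference was 2.38 (SE 0.76, 95% interval 0.62 to 4.15, limma adjusted p = 1.00). Larger log2 differences were seen in 14 of the 10237 genes tested, and by p-value DDIT4 ranked 115. The SD of its log2 values in hypoxia, 0.61, was above that of 85.9% of the genes tested, and in normoxia, at 1.70, above that of 98.8%. DESeq2 on the recovered reads, which called 0.26% of its genes higher, gave a log2 difference of 1.96 (SE 0.58, adjusted p = 0.215), and edgeR gave 1.95 (adjusted p = 1.00). An exact two-sided permutation test on DDIT4 alone gave p = 0.10, the smallest that 3 libraries against 3 allow.

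**Figure D1:**
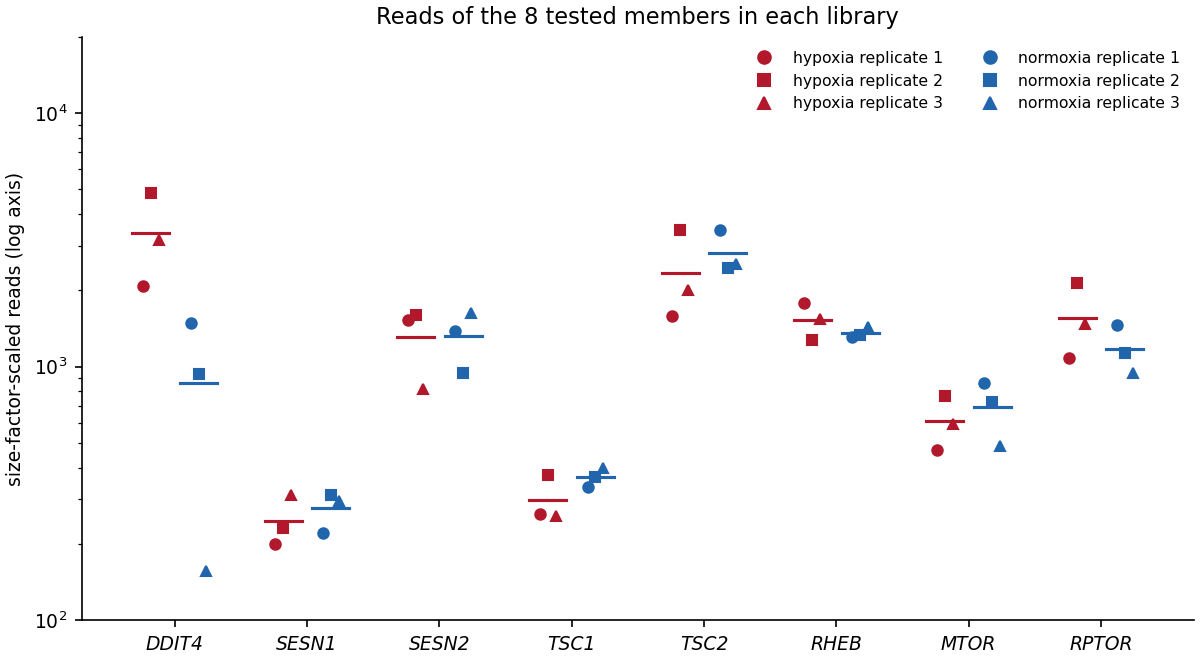
Scaled reads on a log axis for the 8 members that could be tested, with hypoxia left of normoxia for each gene, a symbol for each replicate and a bar at the group mean. DDIT4 is the gene whose groups are apart, and its normoxia replicate 3 lies at 156 scaled reads, far below the other normoxia libraries at 1488 and 939.

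The size of the DDIT4 difference moved with the libraries used. Without normoxia replicate 3 the normoxia mean was 1214 scaled reads and the difference 2.76-fold, with a limma log2 difference of 1.42 (SE 0.37, adjusted p = 0.509). Without normoxia replicate 1, the highest normoxia library, the difference was 6.12-fold, with a limma log2 difference of 3.03 (SE 0.69, adjusted p = 0.641). DESeq2 called DDIT4 in both of these fits, with an adjusted p of 0.0141 without normoxia replicate 3 and 0.00250 without normoxia replicate 1, fits that were chosen after seeing the data. In the other 4 fits that leave out a library, DESeq2 gave adjusted p-values from 0.181 to 0.999 and did not call it.

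**Figure D2:**
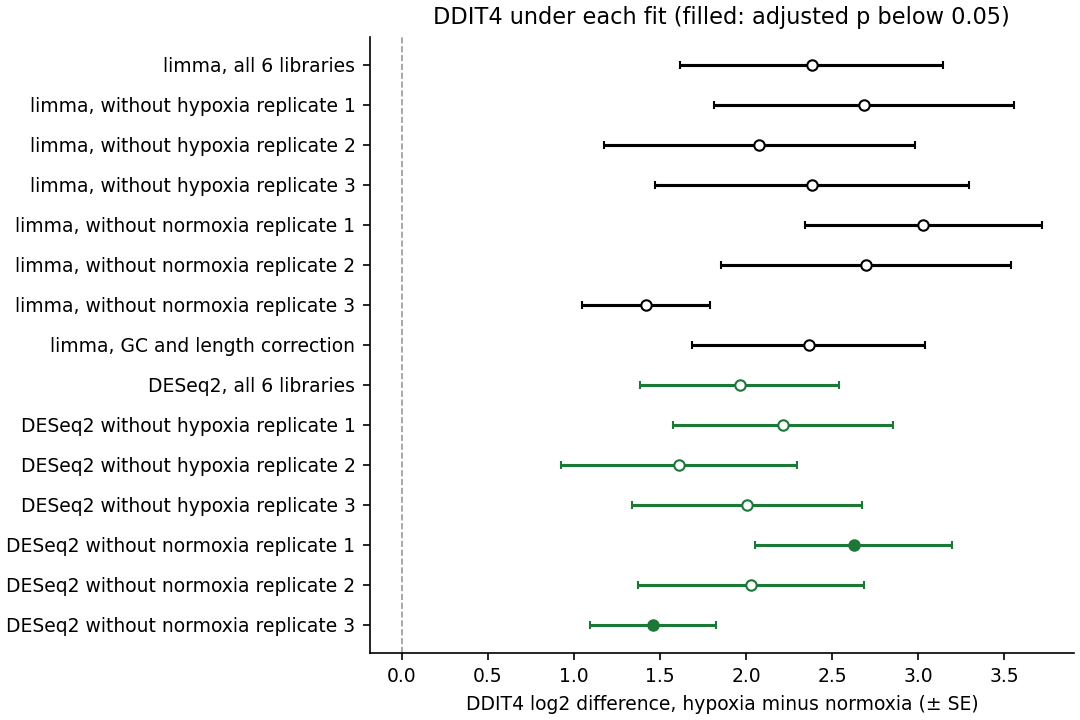
Log2 difference of DDIT4 (hypoxia minus normoxia) with its standard error under limma (black) and DESeq2 (green), with all libraries and with each library left out, where filled points have an adjusted p below 0.05. All estimates are positive, from 1.42 to 3.03, and the filled points are the DESeq2 fits without normoxia replicate 1 and without normoxia replicate 3.

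Other measures of the libraries moved beside DDIT4. Normoxia replicate 3 had reads in 16741 genes, fewer than the 18214 to 18858 of the other libraries. The trend of gene levels on GC content, as the slope of log2 deviation per 10 percentage points of GC, was -0.16, 0.28 and -0.13 in hypoxia replicates 1 to 3, against 0.36, 0.09 and -0.44 in normoxia replicates 1 to 3. The 10 endothelial markers summed to 512, 1406 and 809 FPKM in hypoxia, against 997, 840 and 449 in normoxia. The 6 epithelial markers in the table summed to 963, 620 and 767 FPKM in hypoxia, against 707, 695 and 1124 in normoxia. Normoxia replicate 3 thus had the lowest DDIT4, the most negative GC trend, the lowest endothelial sum and the highest epithelial sum of the 6 libraries, and the part of these measures in the DDIT4 value was not tested. After a correction of each library for trends on GC content and gene length, the DDIT4 log2 difference was 2.36 (SE 0.68, limma adjusted p = 0.581). In bulk RNA, fewer cells with a transcript and less transcript per cell cannot be told apart.

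**Figure D3:**
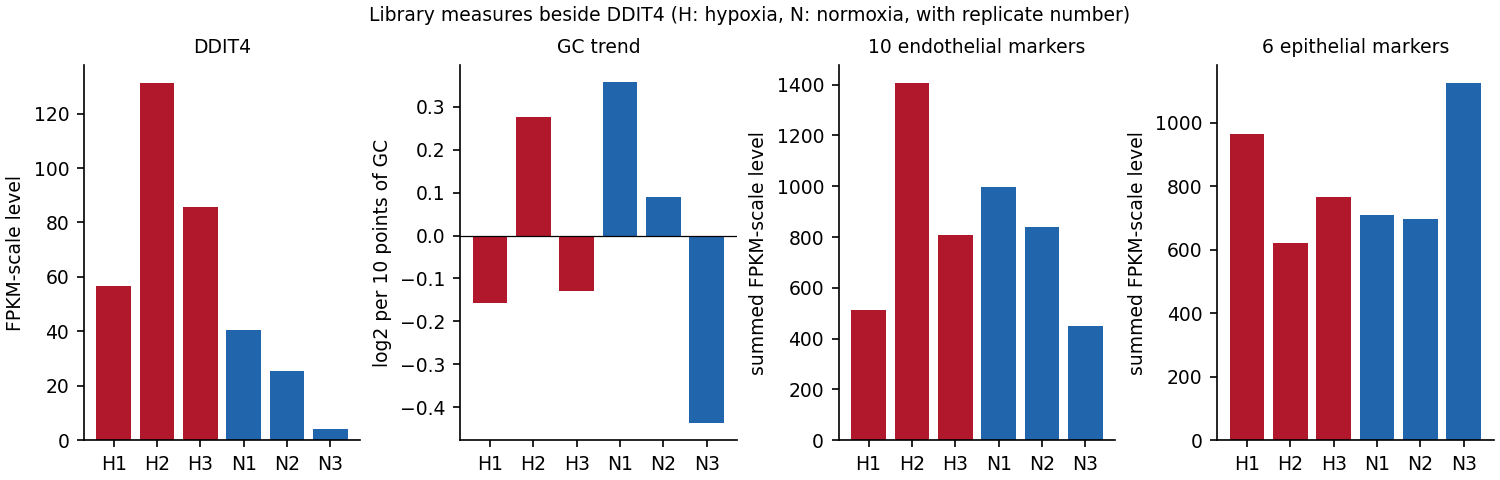
The DDIT4 level, the slope of log2 deviation on GC content, and the summed levels of 10 endothelial and 6 epithelial markers in each library, on the FPKM scale where a level is shown. Normoxia replicate 3 (N3) has the lowest DDIT4 bar, at 4.25, the lowest endothelial bar, at 449, and the highest epithelial bar, at 1124.

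DDIT4 (ENSG00000168209) spans chr10:72273920-72276036 (plus strand) in GENCODE 29 on GRCh38, matched by identifier, as are the positions of the other members. Of its 2058 bp of exons, 847 bp (41.2%) are shared with the antisense gene DDIT4-AS1 on the opposite strand. DDIT4-AS1 is not among the genes of the table, and no source used here gives the strand setting of the counting. Within the shared 847 bp, reads of the pair cannot be told apart. The RefSeq window from 250 bases before to 50 bases after the start of the gene (GRCh38.p14) is printed for DDIT4, and beside it those of SESN2 and of the first of 2 TSC2 starts, a member with a difference near 0 and one with a negative difference. The core of the HIF binding element, ACGTG or GCGTG, was searched on both strands and is in capitals.
DDIT4, plus strand, chr10:72273674-72273973: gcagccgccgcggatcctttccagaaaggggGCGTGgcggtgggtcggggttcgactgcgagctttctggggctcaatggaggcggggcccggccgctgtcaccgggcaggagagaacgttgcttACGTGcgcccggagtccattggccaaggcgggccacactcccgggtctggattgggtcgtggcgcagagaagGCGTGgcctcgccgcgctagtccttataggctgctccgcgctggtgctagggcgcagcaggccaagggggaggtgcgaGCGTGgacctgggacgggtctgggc
SESN2, plus strand, chr1:28259268-28259567: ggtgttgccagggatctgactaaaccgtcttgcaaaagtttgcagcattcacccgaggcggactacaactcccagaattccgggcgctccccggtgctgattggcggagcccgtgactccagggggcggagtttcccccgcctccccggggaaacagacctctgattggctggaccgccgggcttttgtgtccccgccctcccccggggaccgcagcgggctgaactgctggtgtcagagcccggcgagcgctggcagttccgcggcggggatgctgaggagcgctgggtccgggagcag
TSC2, plus strand, chr16:2047735-2048034: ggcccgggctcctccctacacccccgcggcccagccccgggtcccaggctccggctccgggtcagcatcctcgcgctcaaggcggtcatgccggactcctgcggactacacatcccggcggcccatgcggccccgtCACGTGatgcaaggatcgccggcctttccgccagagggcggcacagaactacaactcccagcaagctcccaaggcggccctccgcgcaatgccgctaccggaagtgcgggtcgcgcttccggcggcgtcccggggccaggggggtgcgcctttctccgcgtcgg
The DDIT4 window held 4 cores, 1 of ACGTG and 3 of GCGTG, the most of the 12 windows searched. Those windows cover 9 of the 10 members, and no DEPTOR window was searched. The DDIT4 cores started 219, 125 and 53 bases before the start site and at base 26 after it. Neither core was in the SESN2 window, and the 2 matches in the TSC2 window are a single palindrome read on both strands. RHEB and MTOR had 1 core each, RPTOR 2, 1 of the 3 SESN1 windows 1, and TSC1 and SESN3 none. Of all 35116 windows of this length, 48.4% held ACGTG or GCGTG, so a match by itself is common. Cores per window were not counted over all windows, so whether 4 is unusual is not shown. The element TGATGNAA, bound by ATF4 with a C/EBP partner, was in 3.62% of all windows and, among the members, in the TSC2 window alone, where it overlaps the palindrome. A match of letters is not a bound site.

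The groups overlapped for SESN1 and SESN2, and SESN3 was too low to test. SESN2 (ENSG00000130766) spans chr1:28259527-28282491 on the plus strand, and SESN1 (ENSG00000080546, chr6:108986437-109094819) and SESN3 (ENSG00000149212, chr11:95165513-95232541) lie on the minus strand. SESN2 had 1521, 1594 and 816 scaled reads in hypoxia, against 1387, 946 and 1623 in normoxia, and the groups overlapped over nearly their whole range. Its means were 1310 ± 430 in hypoxia and 1319 ± 344 in normoxia (SD, n = 3 each), with a log2 difference of -0.04 (95% interval -0.80 to 0.73, limma adjusted p = 1.00). The sign of that difference turned in 6 of 23 other fits, each of them a fit without 1 library, namely hypoxia replicate 3 or normoxia replicate 1 or 3. SESN1, a p53-induced sestrin, had 199, 230 and 311 scaled reads in hypoxia, against 221, 312 and 295 in normoxia. Its log2 difference was -0.17 (95% interval -0.83 to 0.50, limma adjusted p = 1.00). SESN3, which FOXO factors induce in other cells, had 0, 0 and 2 reads in hypoxia, against 0, 1 and 0 in normoxia. A count of 3 reads in a library of mean depth would be 0.0159 FPKM for SESN3, and no library reached that, so SESN3 was not detectable at this depth and no fold is given.

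DEPTOR, the inhibitor that binds MTOR itself, was also at the floor. It had 1, 0 and 6 reads in hypoxia, against 0, 2 and 0 in normoxia. Only hypoxia replicate 3 exceeded the floor of 3 reads, which corresponds to 0.0641 FPKM. The gene (ENSG00000155792) spans chr8:119873717-120050913 on the plus strand.

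The groups overlapped for both TSC genes, TSC2 (ENSG00000103197, chr16:2047465-2089487, plus strand) and TSC1 (ENSG00000165699, chr9:132891348-132946874, minus strand). TSC2, the subunit that acts on RHEB, had 1582, 3472 and 1997 scaled reads in hypoxia, against 3465, 2444 and 2530 in normoxia. Hypoxia replicate 2 was as high as the highest normoxia library, while the other hypoxia libraries lay below all normoxia libraries. The means were 2350 ± 993 in hypoxia and 2813 ± 567 in normoxia (SD, n = 3 each), with a log2 difference of -0.32 (95% interval -1.08 to 0.45, limma adjusted p = 1.00). That value was -0.08 without hypoxia replicate 1 and -0.63 without hypoxia replicate 2, and -0.16 without normoxia replicate 1. The highest TSC2 values stood in hypoxia replicate 2 and normoxia replicate 1, the libraries with the most positive GC trends. TSC2 transcripts have a GC content of 60.6%. SESN2, at 59.5%, was instead highest in normoxia replicate 3, the library with the most negative trend. The part of GC content in the TSC2 values was not tested. After the GC and length correction the TSC2 log2 difference was -0.17 and its SE 0.18, against 0.33 without the correction. TSC1, the stabilising partner, had 262, 372 and 257 scaled reads in hypoxia, against 336, 368 and 397 in normoxia, with a log2 difference of -0.29 (95% interval -1.02 to 0.44, limma adjusted p = 1.00). TSC2 exons share 778 bp with PKD1 and 402 bp with NTHL1 on the opposite strand, 3.96% and 2.05% of their length.

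RHEB (ENSG00000106615, chr7:151466012-151520120, minus strand) had the narrowest spread of the members tested in both groups. It had 1786, 1275 and 1538 scaled reads in hypoxia, against 1309, 1336 and 1435 in normoxia. The highest normoxia library was 1.10 times the lowest, and the SD of log2 values in normoxia was above that of 3.23% of the genes tested. The means were 1533 ± 255 in hypoxia and 1360 ± 66.3 in normoxia (SD, n = 3 each), a log2 difference of 0.16 (95% interval -0.32 to 0.64, limma adjusted p = 1.00). RHEBP2, a processed pseudogene of RHEB, held reads equal to 12.2% to 13.0% of those of RHEB in hypoxia and 11.5% to 18.8% in normoxia, so a part of the RHEB reads may be placed at either copy.

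Both mTORC1 subunits among the members overlapped between groups, MTOR (ENSG00000198793, chr1:11106535-11262507, minus strand) and RPTOR (ENSG00000141564, chr17:80544819-80966371, plus strand). MTOR had 468, 764 and 596 scaled reads in hypoxia, against 861, 725 and 485 in normoxia, with a log2 difference of -0.16 (95% interval -0.90 to 0.57, limma adjusted p = 1.00). RPTOR had 1082, 2128 and 1473 scaled reads in hypoxia, against 1464, 1130 and 942 in normoxia. Its means were 1561 ± 529 in hypoxia and 1179 ± 264 in normoxia (SD, n = 3 each), with a log2 difference of 0.37 (95% interval -0.35 to 1.09, limma adjusted p = 1.00), the largest of the 7 members other than DDIT4. Without hypoxia replicate 2 the RPTOR difference was 0.12 and without hypoxia replicate 1 it was 0.60. After the GC and length correction it was 0.47 (SE 0.17, limma adjusted p = 0.839), against an SE of 0.31 without the correction. The difference of RPTOR kept its sign in all 23 other fits, and that of MTOR turned in 3 of 22.

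**Figure D4:**
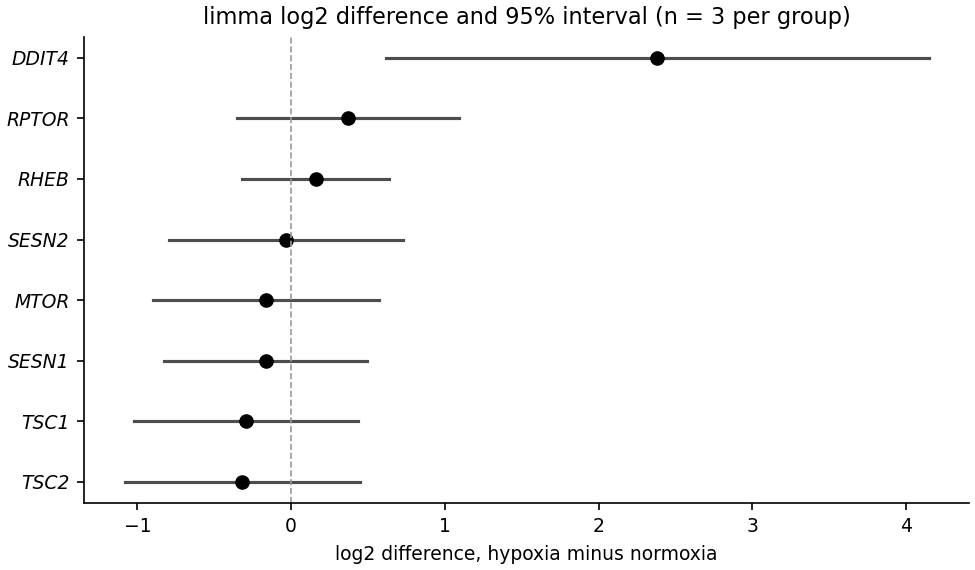
Log2 difference (hypoxia minus normoxia) of each tested member with its 95% interval from the limma fit across all genes. The DDIT4 interval, from 0.62 to 4.15, lies above 0, and the intervals of the other 7 members include 0.

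Counted together, 0 of the 8 tested members passed limma, against 0.0977% of all genes tested, 1 of 8 had an unadjusted p below 0.05, against 2.69%, and 0 passed DESeq2 or edgeR, against 0.29% and 0.0674% of the genes those tools tested. Groups without overlap were seen for 1 of the 8, against 7.48% of all genes tested. For hypoxia above normoxia the counts were 1 of 8 against 4.77%, and for hypoxia below normoxia 0 of 8 against 2.72%. Of the 8, 3 had a positive and 5 a negative log2 difference, with a median of -0.10 beside 0.00 over all genes tested. For the 7 members other than DDIT4 the 95% intervals reach down to -1.08 and up to 1.09, so differences near 2-fold in either direction lie inside some of them.

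The order of the levels per length placed DDIT4 first in hypoxia. On the FPKM scale DDIT4 averaged 91.2 ± 37.6 in hypoxia and 23.4 ± 18.2 in normoxia (SD, n = 3 each). RHEB averaged 24.3 ± 4.04 in hypoxia and 21.5 ± 1.05 in normoxia, and SESN2 21.2 ± 6.97 in hypoxia and 21.4 ± 5.57 in normoxia. In hypoxia the lowest DDIT4 library, at 56.5, lay above the highest RHEB library, at 28.3, whereas in normoxia DDIT4 ran from 4.25 to 40.5, a range that spans all libraries of RHEB and SESN2. RPTOR followed at 8.48 ± 2.87 in hypoxia and 6.40 ± 1.44 in normoxia, and TSC2 at 6.70 ± 2.83 in hypoxia and 8.02 ± 1.62 in normoxia, with ranges that overlap in both groups. MTOR, at 2.81 ± 0.69 in hypoxia and 3.19 ± 0.88 in normoxia, did not differ beyond the spread from SESN1, at 2.70 ± 0.63 in hypoxia and 3.02 ± 0.53 in normoxia. TSC1 averaged 0.95 ± 0.21 in hypoxia and 1.17 ± 0.10 in normoxia, and SESN3 and DEPTOR stood below 0.05 in both groups. The places of TSC2 and of other members depend on the length used. The summed exons of TSC2 span 19626 bp but its longest principal transcript 6164 bp. By that length TSC2 averaged 21.3 in hypoxia and 25.5 in normoxia, rank 3 among the members in both groups. By principal transcript length SESN2 took rank 4 in both groups. In normoxia RHEB then averaged 36.7 and DDIT4 27.6, ranks 1 and 2, while DDIT4 stayed first in hypoxia.

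As a share of the summed FPKM of the 10 members, DDIT4 made up 45.2%, 63.7% and 59.5% in hypoxia, against 37.1%, 30.7% and 5.87% in normoxia. TSC2 made up 3.61%, 4.81% and 3.95% in hypoxia, against 9.07%, 8.39% and 9.97% in normoxia. These shares move together by construction, since a larger share of DDIT4 lowers the summed share of the others.

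The rest of the pathway was described by 12 lists of 116 genes, of which 94 were tested. None passed limma in either direction, 3 had an unadjusted p below 0.05, and 44 had a positive and 50 a negative log2 difference, with a median of -0.03 beside 0.00 over all genes. DESeq2 called 2, TXNIP and HIF1A, both lower in hypoxia, where it called 0.03% of all genes lower. Without hypoxia replicate 1 or without hypoxia replicate 2, DESeq2 called 0 genes lower over the whole table, so neither call held there. TXNIP encodes a thioredoxin-binding protein that restrains glucose uptake and is known to bind and stabilise the DDIT4 protein. It had 66.4, 61.2 and 80.8 scaled reads in hypoxia, against 430, 372 and 111 in normoxia, a log2 difference of -1.83 by limma (adjusted p = 0.974) and -2.13 by DESeq2 (adjusted p = 0.00583). The TXNIP groups did not overlap, as for 8 of the 94 list genes tested, against 7.48% of all genes tested. Normoxia replicate 3 was again the lowest normoxia library. HIF1A, the HIF subunit that drives DDIT4 transcription at low oxygen, had 664, 590 and 1079 scaled reads in hypoxia, against 1179, 2945 and 4015 in normoxia. Its log2 difference was -1.67 by limma (adjusted p = 0.998) and -1.80 by DESeq2 (adjusted p = 0.0206). FOXO1, a forkhead factor of sestrin genes, had the next largest difference among the factors, -0.67 (limma adjusted p = 1.00).

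Among the remaining regulators tested by limma, no gene passed limma, DESeq2 or edgeR. For list genes below the FPKM filter the DESeq2 and edgeR results were not looked up. Of 5 tested subunits of the mTOR complexes outside the members, 4 were negative, with a median of -0.25. They were led by MLST8, a subunit of both complexes, at -0.33, and TTI1, a factor in assembly of the complexes, at -0.30. MLST8 had 2145, 1850 and 1898 scaled reads in hypoxia, against 2130, 1998 and 3498 in normoxia, where replicate 3 stood apart. Of 6 tested genes of GATOR1 and KICSTOR, which restrain the Rag GTPases, 5 were negative, with a median of -0.25. NPRL3 was at -0.39 and KICS2 at -0.33. KICS2 had 113, 103 and 86.5 scaled reads in hypoxia, against 109, 178 and 108 in normoxia, where replicate 2 stood apart. Of 6 tested genes of GATOR2 and the amino acid sensors 5 were positive, with a median of 0.11. BMT2, the methionine-dependent sensor also called SAMTOR, was at 1.07 (95% interval -0.09 to 2.23) and the GATOR2 subunit WDR24 at -0.61 (95% interval -1.33 to 0.11). The 10 tested genes of Rag GTPases, Ragulator and folliculin had a median of 0.06, with LAMTOR5 at 0.37 and RRAGA at 0.31.

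The kinase inputs were close to 0. For the 7 tested genes of the PI3K-AKT branch the median was -0.04, with PIK3CB at -0.29 and AKT2 at -0.26. For the 8 of the LKB1-AMPK branch, which activates the TSC complex when energy is low, it was -0.05, with PRKAG1 at 0.19 and STK11 at -0.17. The 14 tested substrates and translation effectors had a median of -0.07. EIF4EBP1, the translation repressor that mTORC1 phosphorylates, averaged 5894 ± 1311 scaled reads in hypoxia and 4399 ± 743 in normoxia (SD, n = 3 each), a log2 difference of 0.41 (95% interval -0.13 to 0.96), and the scaffold EIF4G1 was at -0.37. Of the 2 tested relatives and partners, RHEBL1, a RHEB paralog, was at 0.55 and TBC1D7, a TSC complex subunit, at -0.09, while DDIT4L is not among the genes of the table.

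A pair of lists held genes that share inducers with DDIT4 or the sestrins. The 6 tested genes induced by ATF4, the factor of the integrated stress response that is known to induce DDIT4 and SESN2, had a median of 0.20, with ATF3 at 0.57 and CHAC1 at 0.47, and none passed. The 8 p53 targets beside the sestrins had a median of -0.14, and 7 were negative. CDKN1A, the cell cycle inhibitor p21, had 6720, 7048 and 4750 scaled reads in hypoxia, against 11140, 8187 and 9414 in normoxia. Its groups did not overlap, where 2.72% of all genes tested were lower without overlap. The log2 difference of CDKN1A was -0.64 (95% interval -1.18 to -0.11, limma adjusted p = 1.00). MDM2 was at -0.61, with 1550, 1267 and 1265 scaled reads in hypoxia, against 1375, 1560 and 4194 in normoxia, where replicate 3 stood apart.

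**Figure D5:**
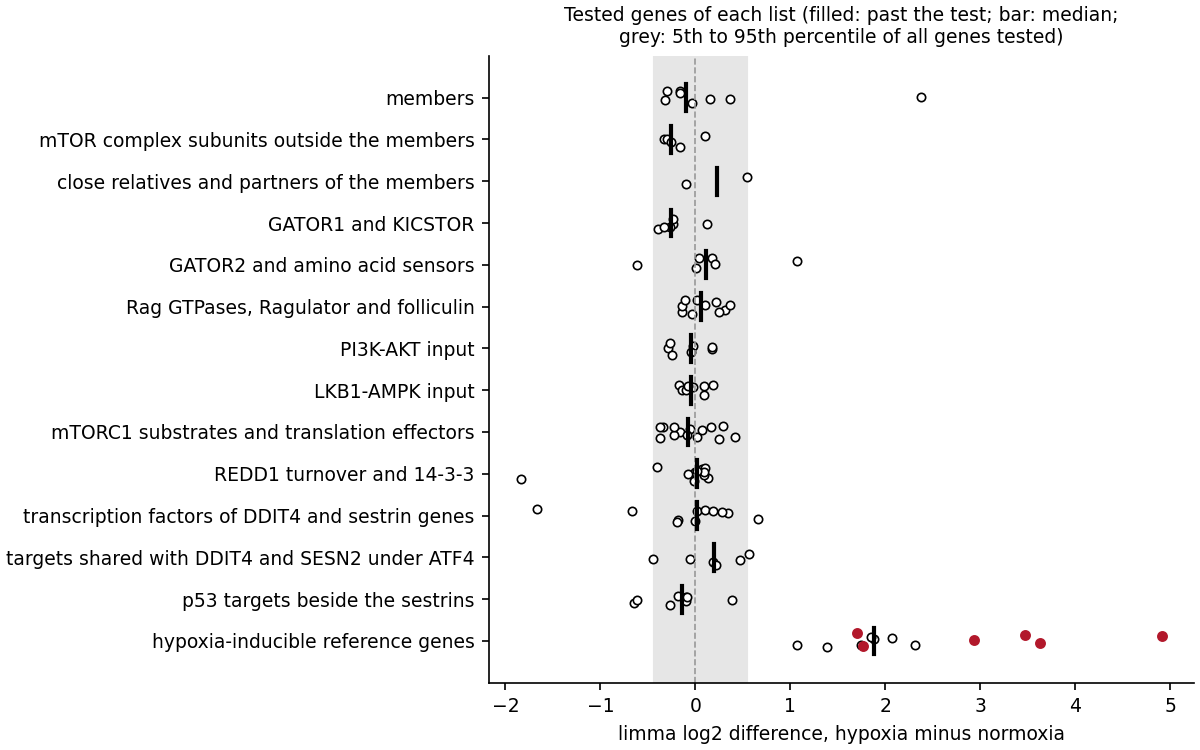
Limma log2 differences (hypoxia minus normoxia) of the tested genes of the members, of the 12 other lists of the pathway and of the hypoxia-inducible genes, with the median of each list as a bar and filled points for genes past the test. DDIT4, at 2.38, lies among the hypoxia-inducible genes, which run from 1.07 to 4.91, while the other 7 members lie between -0.32 and 0.37.

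By limma the DDIT4 difference lay within the range of the hypoxia-inducible genes. Those 13 ran from 1.07 for EGLN1 to 4.91 for ANGPTL4, with a median of 1.88, and DDIT4 at 2.38 lay between ADM at 2.31 and SLC2A1 at 2.94. The 95% interval of DDIT4, from 0.62 to 4.15, covers much of that range, so its place among these genes is loosely fixed. By DESeq2 DDIT4 was at 1.96, below ADM at 2.38. DESeq2 called 12 of the 13 genes higher and did not call DDIT4 (adjusted p = 0.215). Without normoxia replicate 3 limma placed DDIT4 at 1.42, a value not comparable with the range above, which is from all libraries. In the fits with all libraries, the 13 genes and DDIT4 were compared over the same libraries, so their values share the same spread of libraries. NDRG1, a HIF target, averaged 4436 ± 1812 scaled reads in hypoxia and 1252 ± 127 in normoxia (SD, n = 3 each), a 3.54-fold difference close to the 3.89-fold of DDIT4, but with a narrower normoxia group.

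Over the 6 libraries, the 5 protein-coding genes whose log2 levels were most like those of DDIT4, of 5290 compared, were AK1, CDKN2D, EFNA1, HOMER3 and CARHSP1. Their Pearson correlations with DDIT4 ran from 0.986 to 0.996, a description over 6 libraries that share depth and GC trends. AK1, an adenylate kinase, had 272, 317 and 276 scaled reads in hypoxia, against 243, 222 and 150 in normoxia. EFNA1, a ligand of Eph receptors, had 274, 474 and 350 in hypoxia, against 248, 242 and 96.9 in normoxia. Their differences were smaller than that of DDIT4, from 0.27 for HOMER3 to 0.97 for EFNA1 on the log2 scale, and none passed limma. Normoxia replicate 3 was the lowest library in each, which their choice by likeness to DDIT4 favours.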

How the data were processed

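Polyadenylated RNA of 6 EA.hy926 libraries was measured by sequencing. CASAVA, HISAT2 2.0.5 and featureCounts 1.5.0-p3 are listed, with no settings, per the submitters' processing notes, which also name a mouse build although all identifiers are human. The file's name gives FPKM as its unit, which the tests were planned for, but the deposited signal holds whole read counts per gene divided by 1 size factor per library: 100% of the values were whole multiples of 1 step within 0.05 of a step. Reads were recovered by that step and sum to 17226736 to 18652704 per library. Exon length, GC content and positions came from GENCODE 29 (22153 of 22153 identifiers) and symbols from a name table (21988 of them). Values were divided by summed exon length and mean library total to give the FPKM scale.

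The 10237 genes that reached 1 FPKM in 3 or more libraries were fitted as log2(FPKM + 0.1) with limma 3.58.1 in R 4.3.3. The model held the group alone, variances were robust and followed a trend on mean level, and two-sided p-values were adjusted by Benjamini-Hochberg. DESeq2 1.42.0 and edgeR 4.0.16 were run on the recovered reads as alternatives. Other alternatives were other pseudocounts, filters, scalings and variance settings, a GC and length correction, a replicate block and fits without each library. The limma fitting was tested on simulated reads with known changes. It recovered 8% of 2-fold, 80.6% of 4-fold and 98.4% of 16-fold changes, so most 2-fold changes were missed. Of the calls on simulated reads, 6.2% were unchanged genes.

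The members and lists were chosen with earlier results of these data known. Named were all members, from each list up to 3 genes past the test or else the 2 with the largest differences, the most abundant check genes, and the 5 genes most like DDIT4. Genes named outside that rule (NDRG1, EGLN1, ADM and KDR, with RICTOR and the genes beside SESN2 in the closing section) were chosen after their values were seen.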

Additional observations from a re-analysis of the deposited data

How the results depend on the processing

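Over all genes, limma called 10 higher and 0 lower, with 275 at an unadjusted p below 0.05. The count higher was 3 with no filter on low values, 33 after the GC and length correction, 19 with the replicate block, 9 by edgeR and 52 by DESeq2. It ran from 1 to 23 with 1 library left out, and by DESeq2 it was 42, 31 and 29 without hypoxia replicate 1, 2 or 3 and 41, 30 and 96 without normoxia replicate 1, 2 or 3. The count lower was 1 with a pseudocount of 1, with no filter, without trend and robust variances and after the GC and length correction, and 6 by DESeq2. It was 0 to 1 with 1 library left out and by DESeq2 0, 0 and 2 without hypoxia replicate 1, 2 or 3 and 3, 2 and 13 without normoxia replicate 1, 2 or 3. The DDIT4 difference was positive in all 23 alternatives, from 1.42 to 3.03 by limma and from 1.46 to 2.63 by DESeq2 with 1 library left out. The number of members past the test was 0 to 1 over those fits, the 1 being DDIT4 by DESeq2 without normoxia replicate 1 or 3. With 1 library left out, SESN2 ran from -0.26 to 0.27 by limma, turning to 0.27 where hypoxia replicate 3, to 0.02 where normoxia replicate 1 and to 0.13 where normoxia replicate 3 was left out. By DESeq2 the same fits gave 0.24, 0.044 and 0.16. MTOR ran from -0.39 to 0.01 by limma, turning to 0.0056 without hypoxia replicate 1 and 0.0093 without normoxia replicate 1, and by DESeq2 to 0.024 in that last fit. The other 5 members tested kept their sign in every alternative that tested them. Where calls changed, the cause was not tested. Deviations from the group mean of same-numbered libraries correlated at -0.40, 0.24 and 0.22 for numbers 1, 2 and 3. Those of differently numbered libraries ran from -0.56 to 0.61. With so few libraries per group, these values cannot settle whether replicate numbers pair the libraries. The replicate block gave DDIT4 an SE of 0.71 and a limma adjusted p of 1.00. SESN3 and DEPTOR, with 3 and 9 reads over all libraries, are limited by depth.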

Other observations

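SESN2 levels were set beside genes of the ATF4 list, singled out after their values were seen. TRIB3, a pseudokinase induced by ATF4, had 10408, 10716 and 4995 scaled reads in hypoxia, against 10464, 5550 and 10865 in normoxia, beside 1521, 1594 and 816 for SESN2 in hypoxia, against 1387, 946 and 1623 in normoxia. Both genes were highest in normoxia replicate 3, next highest in hypoxia replicate 2, next to lowest in normoxia replicate 2 and lowest in hypoxia replicate 3. The upper TRIB3 libraries, from 10408 to 10865, lay close together, so the order among them rests on small differences. PPP1R15A, a phosphatase subunit of the same response, had 3596, 3404 and 1774 scaled reads in hypoxia, against 2823, 1825 and 2868 in normoxia, again lowest in hypoxia replicate 3 and normoxia replicate 2. CHAC1, a glutathione-degrading enzyme of the list, had 456, 442 and 265 scaled reads in hypoxia, against 323, 166 and 371 in normoxia, and was highest in hypoxia replicate 1 and lowest in normoxia replicate 2. ATF3, SLC7A11 and CEBPG, the other tested genes of the list, also had orders of libraries unlike that of SESN2. ATF4 itself had 10713, 8345 and 7645 scaled reads in hypoxia, against 6527, 4806 and 10628 in normoxia. DDIT4, which stood at its lowest in normoxia replicate 3, had another order of libraries.

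RICTOR, the defining subunit of the second mTOR complex, was below the filter on low values and had 213, 127 and 223 reads in hypoxia, against 94, 98 and 602 in normoxia.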
